A study of Saccharomyces cerevisiae with 4 samples.

Results

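The transcripts described here encode 45 protein components of the budding yeast spliceosome, chosen by a fixed list of systematic names among the 7132 features of the counts table. The list holds the PRP genes, BRR2, 4 SNU genes, other snRNP and Prp19 complex genes, and the 7 Sm protein genes. Its rule uses no measured value, but it was set with earlier results of these data known. RNA was sequenced from mature spores of a Saccharomyces cerevisiae diploid of the SK1 background. All 4 libraries share the same diploid parent, in which a copper-responsive CUP1 promoter drives IME1, the master inducer of meiosis, and in which a cassette with P_GPD1-mCherry and the hygromycin resistance gene hph is integrated at MATa. Sporulation was started with copper, and after 7 days the spores were freed by enzymatic digestion and sorted by mCherry fluorescence into red spores, which carry the cassette and hence MATa, and non-red spores, which carry MATα. Because the cassette marks MATa, the comparison of mating types is also a comparison of spores with and without the cassette. There were 2 red (a) libraries and 2 non-red (α) libraries, and replicates 1 and 2 were separate sporulations and sorts. The question put to these samples was whether transcripts are shared equally by spores of both mating types.

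The sample titles name each library by spore color and replicate, and these were used as the groups. The strain descriptions contradict the colors, since they give MATalpha to both red libraries and to the second non-red library, and MATa to the first non-red library. The cassette transcripts follow the titles: hph had 71566 and 67902 reads in red spores, against 4348 and 972 reads in non-red spores, and the most abundant mCherry feature had 7814 and 14452 reads in red spores, against 552 and 0 reads in non-red spores. The non-red libraries thus held some reads of the cassette.

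The spliceosome removes introns from pre-mRNA. The U1 snRNP binds the start of the intron, Msl5 and Mud2 bind near its end at the branch point, and the U2 snRNP then takes over the branch point. The U4/U6 and U5 snRNPs join as a tri-snRNP, the Prp19 complex stabilizes the activated machine, and RNA helicases drive each rearrangement up to the release of the mRNA and the disassembly of the particle. In budding yeast few genes hold introns, but several of these act in meiosis, and the U1 component Nam8 is needed for splicing some of them together with the meiosis-specific activator Mer1.

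The libraries held 35937755 and 27468051 reads in red spores and 45697828 and 25493760 reads in non-red spores. The 45 transcripts together took 0.422% and 0.400% of the reads in red spores, against 0.408% and 0.380% in non-red spores. Detection was not limiting for most of them, since 44 of the 45 had more than 3 reads in every library, with at least 131 reads, and the exception was SMD1. As a check of the labelled cell type, SPS100, a spore wall maturation gene, reached 2151 and 2768 CPM (counts scaled to a common library size) in red spores, against 2297 and 3238 CPM in non-red spores. None of the 10 spore formation genes examined was at 0 in all libraries, but SPS100 made up most of their summed level: the other 9 summed to 183 and 219 CPM in red spores, against 189 and 190 CPM in non-red spores, and SPS4 and SPR3 each fell below 1 CPM in 1 red library. Genes of budding cells were also present, since none of 8 such genes was at 0 in all libraries. Their summed level was 476 and 595 CPM in red spores, against 534 and 466 CPM in non-red spores. CTS1 and SCW11 made up most of it. CTS1 had 191 and 290 CPM in red spores, against 206 and 220 CPM in non-red spores. SCW11 had 93.8 and 101 CPM in red spores, against 70.4 and 87.2 CPM in non-red spores. CLN1 fell to 0.39 CPM in non-red replicate 2. The part of vegetative cells in the spliceosome transcripts was not tested. In such bulk samples, fewer cells and less RNA per cell cannot be told apart.

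Of the 45 genes, 2 hold an annotated intron and so depend on the machine that they encode, MUD1 and SMD2. Both introns are shown because they carry the signals that the U1 snRNP and Msl5 read. The sequences are from the RefSeq R64 reference, 5′ to 3′ on the plus strand, with capitals for the first 6 bases, the branch point box TACTAAC and the last 3 bases.
MUD1 intron, chrII:479346-479434: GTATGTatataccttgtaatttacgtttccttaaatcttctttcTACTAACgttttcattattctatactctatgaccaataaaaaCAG
SMD2 intron, chrXII:694383-694472: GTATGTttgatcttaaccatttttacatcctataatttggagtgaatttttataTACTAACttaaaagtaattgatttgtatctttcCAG

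The MUD1 intron is 89 bases long and starts 8 bases into the coding sequence, and the SMD2 intron is 90 bases long and starts 5 bases into it. The median length of the 312 introns of protein-coding genes is 154 bases. Both begin with GTATGT, as do 65.7% of those 312 introns, and both hold TACTAAC, as do 74.4% of them. The 4 introns in 44 further spliceosome genes, in STO1, YSF3, LSM2 and LSM7, have the same GTATGT and TACTAAC letters. An intron was annotated in 4.69% of protein-coding genes. The values are reads per gene, so spliced and unspliced forms of MUD1 and SMD2 were not separated here. From the reads of the sorted spores, the authors list MUD1, SMD2, STO1, YSF3 and LSM2 among genes with retained introns. They place LSM7 among genes without obvious retention, a class that includes genes with poor coverage.

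MUD1 (YBR119W, chrII:479338-480323), which encodes an RNA-binding protein of the U1 snRNP, was the most even transcript of all members that were tested. It had 2399.5 and 1750 reads in red spores, against 2619.6 and 1618.37 reads in non-red spores. After normalization for library size (TMM), this was 66.7 and 62.2 CPM in red spores, against 59.4 and 62.8 CPM in non-red spores, so that the groups overlapped and the highest library was only 1.12-fold above the lowest. SMD2 (YLR275W, chrXII:694378-694800), which encodes an Sm core protein, had 2028.25 and 2262 reads in red spores, against 1925 and 956 reads in non-red spores. Its level was 56.4 and 80.5 CPM in red spores, against 43.7 and 37.1 CPM in non-red spores, and these did not overlap. The fitted log2 fold change of red over non-red spores was 0.74 for SMD2 and did not pass the edgeR quasi-likelihood test (FDR = 1.0), and the ratios within the replicates had an SD of 0.53 on the log2 scale.

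To compare genes with each other, levels were divided by exon length, as TMM-normalized CPM per kb of exon (RPKM). On this scale, spliceosome transcripts were mostly below the middle of the transcriptome. Their median was 55.0 and 45.6 RPKM in red spores and 56.3 and 49.1 RPKM in non-red spores, beside medians of 67.7 and 66.3 RPKM and of 65.4 and 66.0 RPKM over 6008 protein-coding genes in the same libraries. In red spores 13 and 16 of the 45 genes were above that median, and in non-red spores 14 and 16 were. Without division by length, these numbers were 20 and 19 in red spores and 22 and 16 in non-red spores. The level was related to gene length, with a Spearman correlation of -0.34 across the 45 genes and of -0.18 across all genes. These correlations are across genes, which share the libraries and are not independent replicates.

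**Figure D1:**
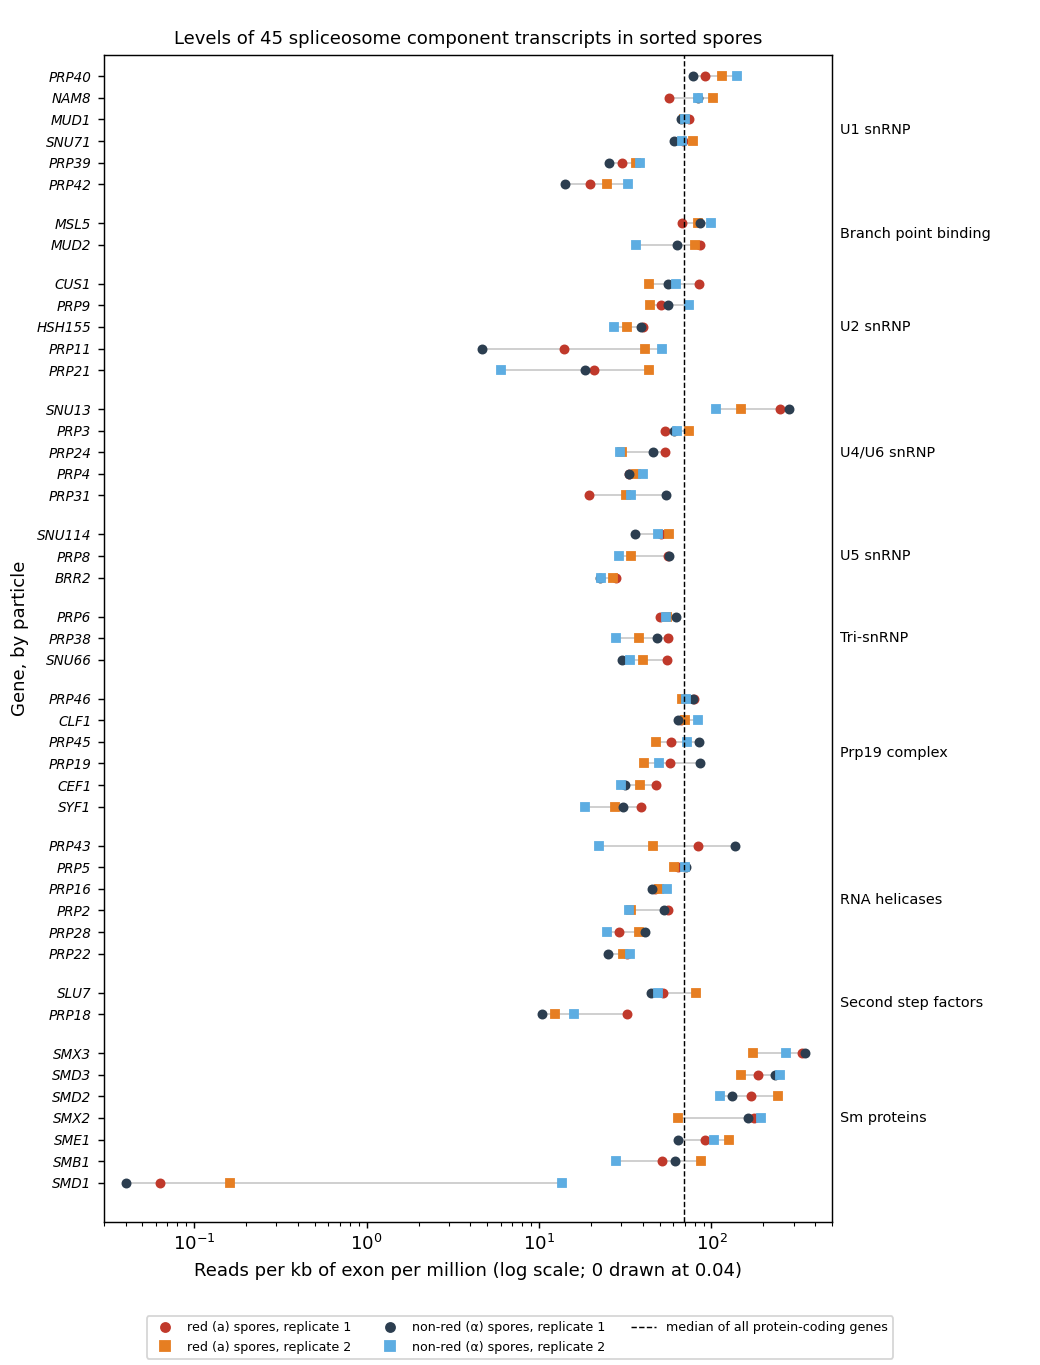
Level of each of the 45 transcripts in the 4 libraries, as RPKM on a log axis, with genes grouped by particle and ordered by mean level. Points are libraries, grey lines join the lowest and highest library of a gene, and the dashed line is the median of the mean level over all protein-coding genes (69.1 RPKM). The Sm proteins and SNU13 reach the highest levels, and SMD1 lies far below the others except in non-red replicate 2.

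The Sm proteins form the ring around the snRNAs of U1, U2, U4 and U5, and their short genes had the highest levels of the particles, with a median of the mean levels of 149 RPKM. SMX3 (YPR182W, chrXVI:900194-900454) had 333 and 174 RPKM in red spores, against 348 and 270 RPKM in non-red spores. SMD3 (YLR147C, chrXII:434158-434463) had 187 and 149 RPKM in red spores, against 234 and 250 RPKM in non-red spores. Both are core ring proteins. SMX3 and SMD3 were at mean percentiles of 88.9 and 84.9 among protein-coding genes, and red replicate 2 was the lowest library for each. Of the other ring components, SMD2 averaged 163 ± 57 RPKM, SMX2 149 ± 58 RPKM, SME1 96.4 ± 25.7 RPKM and SMB1 57.1 ± 24.6 RPKM (mean ± SD of 4 libraries).

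The lowest of all members was also an Sm gene, SMD1 (YGR074W, chrVII:635712-636152). It had 1 and 2 reads in red spores, against 0 and 154 reads in non-red spores, so it was above 3 reads in 1 library only. SMD1 encodes a core ring protein like the other Sm genes, each of which had at least 422 reads in every library. The filter on low counts removed SMD1, and it was not tested. Its 3′ end overlaps the convergent member PRP38 (YGR075C, chrVII:636147-636875) by 6 bases, while no 50-base word of it occurs elsewhere in the reference. The feature with the next systematic name, YGR073C, which the RefSeq annotation used here does not hold, is listed at 0.25 and 0 reads in red spores and at 0 and 0 reads in non-red spores. How reads on overlapping features were counted is not given in the sources used here, and its part in the SMD1 values was not tested. A pattern of 100 or more reads in 1 library and none in another was found for 425 features of the table, of which SMD1 was the only member.

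Among the snRNP proteins outside the Sm ring, SNU13 stood out by RPKM, on an exon length of 381 bases. It encodes a small RNA-binding protein of the U4/U6 snRNP that is also part of box C/D snoRNPs. SNU13 averaged 197 ± 83 RPKM, while the other 4 U4/U6 genes averaged between 34.9 RPKM (PRP31) and 63.0 RPKM (PRP3). In CPM, without division by length, SNU13 was above PRP3 in both libraries of replicate 1 and below it in both of replicate 2. PRP4 and PRP24, which encode a U4/U6 protein with WD repeats and the factor that anneals U4 to U6, averaged 35.8 ± 3.2 and 39.8 ± 11.8 RPKM. For the U1 snRNP, the mean levels were spread from PRP42 with 22.8 ± 8.0 RPKM to PRP40 with 106 ± 28 RPKM. Between these, PRP39 averaged 32.7 ± 5.9, SNU71 68.7 ± 7.4, MUD1 70.0 ± 3.3 and NAM8 81.7 ± 18.6 RPKM. PRP39 and PRP42 encode related proteins, and both were in the lower part of the U1 range. The branch point proteins MSL5 and MUD2 averaged 84.1 ± 13.3 and 66.7 ± 22.2 RPKM.

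The U2 snRNP genes had the lowest median of the particles, at 34.5 RPKM. The SF3b components CUS1 and HSH155 averaged 61.5 ± 17.0 and 34.5 ± 6.1 RPKM, and the SF3a components PRP9, PRP11 and PRP21 averaged 56.3 ± 13.1, 27.8 ± 22.1 and 22.2 ± 15.5 RPKM. PRP11 and PRP21 had SDs close to their means, and their libraries are given below. The U5 genes are long, and PRP8, which encodes the protein that holds the catalytic center, averaged 43.9 ± 14.3 RPKM. The GTPase gene SNU114 averaged 48.2 ± 8.9 RPKM, and BRR2, the helicase that unwinds U4 from U6, averaged 25.1 ± 2.7 RPKM. In the tri-snRNP, PRP6, PRP38 and SNU66 averaged 55.5 ± 4.8, 42.7 ± 12.1 and 39.8 ± 10.9 RPKM.

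In the Prp19 complex the ubiquitin ligase gene PRP19 averaged 58.6 ± 19.4 RPKM. PRP46, CLF1 and PRP45 averaged 73.7 ± 5.6, 71.0 ± 8.7 and 65.7 ± 16.2 RPKM, while CEF1 and SYF1 were lower, at 36.9 ± 8.2 and 28.9 ± 8.4 RPKM. Of the helicases, PRP5 acts when U2 is recruited, PRP28 when U1 leaves, PRP2 at activation, PRP16 between the catalytic steps, PRP22 at release of the mRNA and PRP43 at disassembly. Of these, PRP5 averaged 66.3 ± 4.9 RPKM and PRP43 72.2 ± 50.3 RPKM, and the other 4 averaged between 30.5 RPKM (PRP22) and 49.2 RPKM (PRP16). Of the second step factors, SLU7 averaged 56.8 ± 16.9 RPKM, and PRP18 averaged 17.8 RPKM with a range of 10.4 to 32.5 RPKM. PRP18 was the lowest of all members after SMD1. Neighbours in the order of levels mostly differed by less than these SDs.

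The median spread between libraries was lower for the spliceosome transcripts than for all genes tested. The median SD of the log2 CPM values over the 4 libraries was 0.37 for the 44 genes tested, beside 0.51 for all 6140 genes tested and 0.46 for 43 further spliceosome genes. The highest library was under 2-fold above the lowest for 31 of the 44 genes, and 4-fold or more above it for 3, PRP43, PRP11 and PRP21. These shares describe genes that passed the filter, and no test was made of the list. The 44 members had at least 131 reads in every library, and the other genes were not matched to them for level.

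No spliceosome component transcript passed the test of red (a) over non-red (α) spores, the edgeR quasi-likelihood test with mating type and replicate in the model. At a Benjamini-Hochberg FDR of 0.05, 0 of 44 members were called, with FDR = 1.0 for the lowest, and 1 of 6140 genes was called, or 0.0163%, which was hph. By unadjusted p under 0.05, 1 member passed, as did 182 of all genes. DESeq2 also called 0 members, beside 222 of all genes, and the edgeR likelihood ratio test called 0 members, beside 1 of all genes. The median log2 fold change was 0.08 for the members, beside 0.02 for all genes, and within replicates 1 and 2 the members' median was 0.09 and 0.03. The change was under 2-fold for 43 of 44 members, beside 90.6% of all genes, and the exception was PRP21. The test missed large differences as well: the mCherry feature of the cassette, with a fitted log2 fold change of 6.85 and reads that differed widely within each color, was not called either (FDR = 1.0). A count of 0 members therefore does not show that their levels were equal.

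Levels of red and non-red spores did not overlap for 15 of the 44 members (34.1%), beside 19.1% of all genes. In 9 of these the red spores were higher, SMD2, SNU71, MUD2, SLU7, SNU114, SNU66, CEF1, BRR2 and PRP21, and in 6 they were lower, SMD3, MSL5, PRP5, PRP45, PRP9 and PRP31. The 9 and the 6 are each spread over several particles, and both include genes of the U2 snRNP, the Prp19 complex, the Sm ring and the branch point proteins. The particle medians of the fitted log2 fold change lay between -0.06 for the Prp19 complex and 0.56 for the 2 second step factors. A gene whose colors do not overlap cannot also have replicates that do not overlap. Replicates did not overlap for 45.5% of members and 62.0% of all genes, so the shares by color and by replicate are linked. Whether the higher share of members by color reflects mating type was not tested.

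The most positive fold change was that of PRP21 (YJL203W, chrX:53341-54183), which encodes an SF3a protein of the U2 snRNP. It had 634 and 1028 reads in red spores, against 688.29 and 131 reads in non-red spores. This was 17.6 and 36.6 CPM in red spores, against 15.6 and 5.09 CPM in non-red spores, and non-red replicate 2 was the low library. The groups did not overlap, but the fitted log2 fold change of 1.51 was made of a ratio of 0.17 in replicate 1 and of 2.82 in replicate 2. The SD of the PRP21 ratios, 1.87, exceeded the change itself. The neighbouring feature YJL202C, which the annotation used here does not hold, had 62 and 285 reads in red spores and 174 and 362 reads in non-red spores, and reads shared with PRP21 were not examined.

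MUD2 (YKL074C, chrXI:294610-296193), which encodes the partner of Msl5 at the branch point, was the member that passed unadjusted, and it did not pass after adjustment (edgeR quasi-likelihood test, FDR = 1.0). It had 136 and 128 CPM in red spores, against 101 and 58.1 CPM in non-red spores, without overlap. The fitted log2 fold change was 0.79, with ratios of 0.43 in replicate 1 and 1.14 in replicate 2. Its partner MSL5 had 96.5 and 120 CPM in red spores, against 122 and 143 CPM in non-red spores, and a fitted log2 fold change of -0.30 (FDR = 1.0).

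The most negative fold changes were those of PRP31 and SMX2. PRP31 (YGR091W, chrVII:666341-667825), which encodes a protein that joins U4/U6 to U5, had 28.9 and 47.3 CPM in red spores, against 80.4 and 50.8 CPM in non-red spores. These did not overlap, but only by a narrow margin in replicate 2, and the fitted log2 fold change was -0.79 with an SD of the ratios of 0.97. SMX2 (YFL017W-A, chrVI:103699-103932), an Sm ring gene, had 41.2 and 15.0 CPM in red spores, against 37.9 and 45.1 CPM in non-red spores. Red replicate 2 alone was low and the groups overlapped, and the fitted log2 fold change was -0.73 with an SD of 1.20. Neither passed the test (FDR = 1.0 for each).

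**Figure D2:**
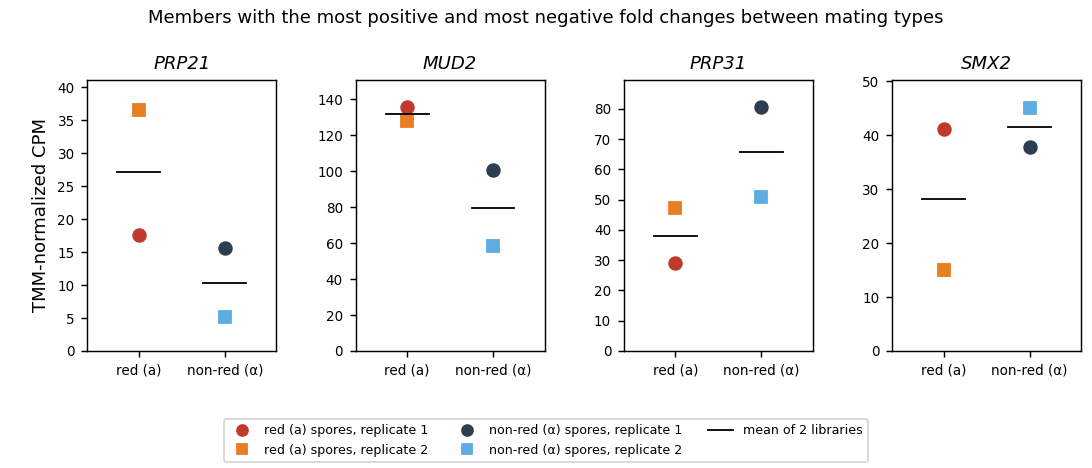
TMM-normalized CPM of the 2 members with the most positive and the 2 with the most negative fold changes between mating types, on linear axes from 0, with red (a) spores on the left and non-red (α) spores on the right. Points are libraries and bars are means of 2 libraries. MUD2 is higher in both red libraries, while PRP21 and SMX2 are each set by 1 or 2 libraries that stand apart.

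The second comparison was that of the separate sporulations, replicate 2 over replicate 1, with spore color in the same model. Here 1156 of 6140 genes were called, or 18.8%, while 2 of 44 members were (4.55%), PRP43 and PRP8. By the likelihood ratio test 4 members and 1604 of all genes were called, and by DESeq2 10 members and 2706 of all genes. Both PRP43 and PRP8 were lower in replicate 2, the direction of 9.87% of all genes. By unadjusted p under 0.05, 5 members and 1910 of all genes passed. The absolute log2 fold change had a median of 0.29 for the members and of 0.60 for all genes, and it was under 1 for 41 of 44 members, beside 69.4% of all genes. The median signed change was -0.08 for the members and -0.02 for all genes. Replicates 2 and 1 did not overlap for 20 of the 44 members (45.5%), beside 62.0% of all genes, with 9 members higher and 11 lower in replicate 2.

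PRP8 (YHR165C, chrVIII:429707-436948) encodes the largest spliceosomal protein, at the catalytic center. It had 6953.56 and 5431.72 reads in replicate 2 (red and non-red), against 14487 and 18149.3 reads in replicate 1. This was 247 and 211 CPM in replicate 2, against 403 and 412 CPM in replicate 1, so that both libraries of replicate 2 were low by a similar amount. The fitted log2 fold change was -0.83 (edgeR quasi-likelihood test, FDR = 0.0296), with ratios of -0.70 in red and -0.96 in non-red spores and an SD of 0.19. The call was lost without red replicate 1 (FDR = 0.0542), non-red replicate 1 (0.0925) or non-red replicate 2 (0.0803), in fits of 3 libraries without the term for spore color, while without red replicate 2 it held (0.0240).

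PRP43 (YGL120C, chrVII:281634-283937) encodes the helicase that takes the spliceosome apart, and it also acts in ribosome assembly. It had 2951 and 1321.5 reads in replicate 2 (red and non-red), against 6933.93 and 13956 reads in replicate 1. The levels were 105 and 51.3 CPM in replicate 2, against 193 and 317 CPM in replicate 1. Both libraries of replicate 2 were below both of replicate 1, and the non-red libraries lay at both ends of the range. The fitted log2 fold change of PRP43 was -1.75 (FDR = 0.0199), with ratios of -0.88 in red and -2.62 in non-red spores and an SD of 1.23. Without non-red replicate 1 the FDR was 0.113, and without any other library it was between 0.00104 and 0.0229.

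SNU13 (YEL026W, chrV:101943-102323), which has a role in ribosome assembly through the snoRNPs, was also low in both libraries of replicate 2. It had 56.8 and 40.5 CPM in replicate 2 (red and non-red), against 94.8 and 107 CPM in replicate 1. The fitted log2 fold change of -1.07 did not pass the threshold (FDR = 0.0736), but it passed without red replicate 2 (0.0302), by the likelihood ratio test (0.0319), by DESeq2 (0.000523) and with library totals only (0.0392). Without red replicate 1, non-red replicate 1 or non-red replicate 2 the FDR of SNU13 was 0.145, 0.301 and 0.141.

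PRP11 and PRP42 had the most positive fold changes. PRP11 (YDL043C, chrIV:375680-376480), an SF3a gene, had 921 and 1064.6 reads in replicate 2 (red and non-red), against 404.1 and 166 reads in replicate 1. This was 32.8 and 41.4 CPM in replicate 2, against 11.2 and 3.76 CPM in replicate 1, and the fitted log2 fold change was 2.50 (FDR = 0.111, SD of the ratios 1.33). The call was made by the likelihood ratio test (0.0398), by DESeq2 (0.000421) and with library totals only (0.0499), while the FDR of PRP11 was between 0.0623 and 0.309 when 1 library was left out. PRP42 (YDR235W, chrIV:933504-935138), a U1 gene, had 40.3 and 54.0 CPM in replicate 2, against 32.1 and 23.0 CPM in replicate 1, a fitted log2 fold change of 0.78 (FDR = 0.376).

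By particle, 5 of the 6 U1 genes had fold changes above 0 between replicates, with a median of 0.42. Of the Prp19 complex genes 5 of 6 were under 0, with a median of -0.23, and of the tri-snRNP genes 3 of 3 were, with a median of -0.14. No U1, Prp19 complex or tri-snRNP gene was called. The SF3a genes did not move together, since PRP11 had a log2 fold change of 2.50, PRP21 of -0.28 and PRP9 of 0.10. Nor did the U5 genes, with -0.83 for PRP8, -0.02 for BRR2 and 0.30 for SNU114.

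**Figure D3:**
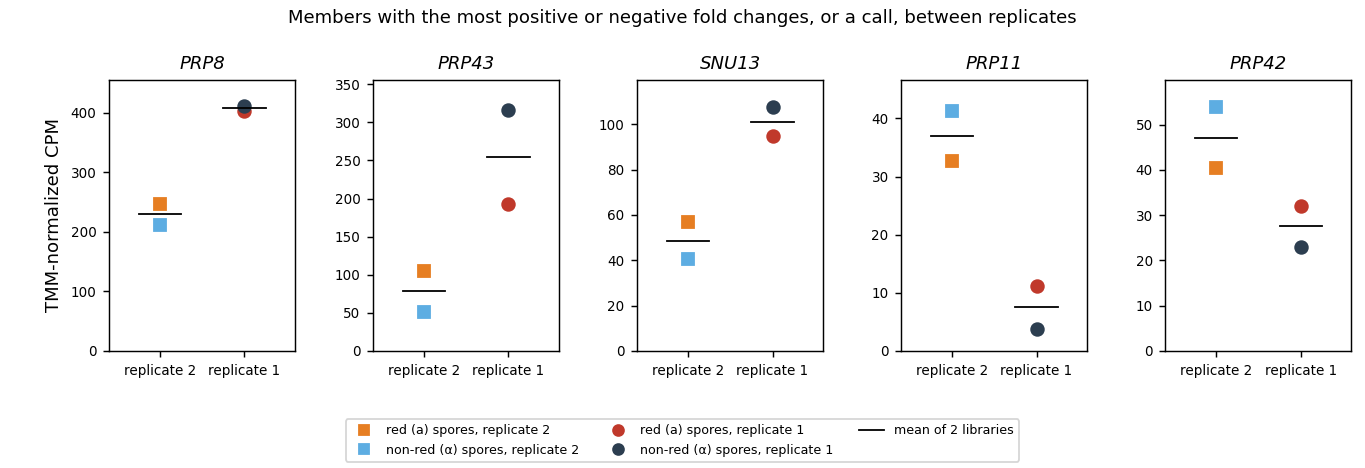
TMM-normalized CPM of the 5 members with the most positive or most negative fold changes between replicates or a call, on linear axes from 0, with replicate 2 on the left and replicate 1 on the right. Points are libraries and bars are means of 2 libraries. PRP8, PRP43 and SNU13 are lower in both libraries of replicate 2, and PRP11 and PRP42 are higher in both.

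PRP43 and SNU13 encode proteins that also act in ribosome assembly, and genes of that pathway in budding yeast are known for 2 promoter boxes, PAC (GATGAG) and RRPE (AAAATTTT). These letters were searched on both strands in the 250 bases before the coding start. PAC was found in 9 of 45 members (20.0%), beside 17.0% of 6007 promoters, and RRPE in 6 members (13.3%), beside 8.62%. Both were found in 3 members (6.67%), SNU13, SNU66 and PRP43, beside 4.08% of promoters. The stretches that hold both boxes are shown because 2 of these 3 genes are the lowest members in replicate 2 by fold change. They are from RefSeq R64, 5′ to 3′ along the strand of the gene, with the boxes in capitals.
SNU13 promoter, chrV:101712-101772, plus strand: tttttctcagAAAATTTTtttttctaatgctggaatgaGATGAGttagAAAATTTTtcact
SNU66 promoter, chrXV:896449-896492, minus strand: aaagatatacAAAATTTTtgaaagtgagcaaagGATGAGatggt
PRP43 promoter, chrVII:284047-284084, minus strand: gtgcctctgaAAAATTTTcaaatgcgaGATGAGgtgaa

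In PRP43 the first base of PAC lies 120 bases before the coding start and that of RRPE 137 bases before it. SNU66, a tri-snRNP gene with the same pair of boxes, had 71.0 and 59.7 CPM in replicate 2 (red and non-red), against 97.0 and 53.4 CPM in replicate 1, and a log2 fold change of -0.14 (FDR = 0.838). Of all 241 genes tested with both boxes, 62 (25.7%) were called lower in replicate 2 and 5 higher, with a median log2 fold change of -0.59. Of the 266 genes with RRPE alone, 57 (21.4%) were called lower and 16 higher, with a median of -0.43, and of the 723 with PAC alone, 77 (10.7%) were called lower and 50 higher, with a median of -0.05. Of the 4555 genes with neither box, 399 (8.76%) were called lower and 473 (10.4%) higher, with a median of 0.05. The boxes were chosen after PRP43 and SNU13 were seen to be low in replicate 2, and a match of letters is a description and not a binding site. PRP8, which was also called lower in replicate 2, held neither PAC nor RRPE. Whether the boxes bear on the change between replicates was not tested. Of the boxes of meiotic genes, the URS1 core GGCGGC was found in 0 of 45 member promoters, beside 4.16% of all, and the middle sporulation element core CACAAA in 7 (15.6%), beside 16.4%. The cell cycle box MCB (ACGCGT) was found in 0, beside 2.90%.

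**Figure D4:**
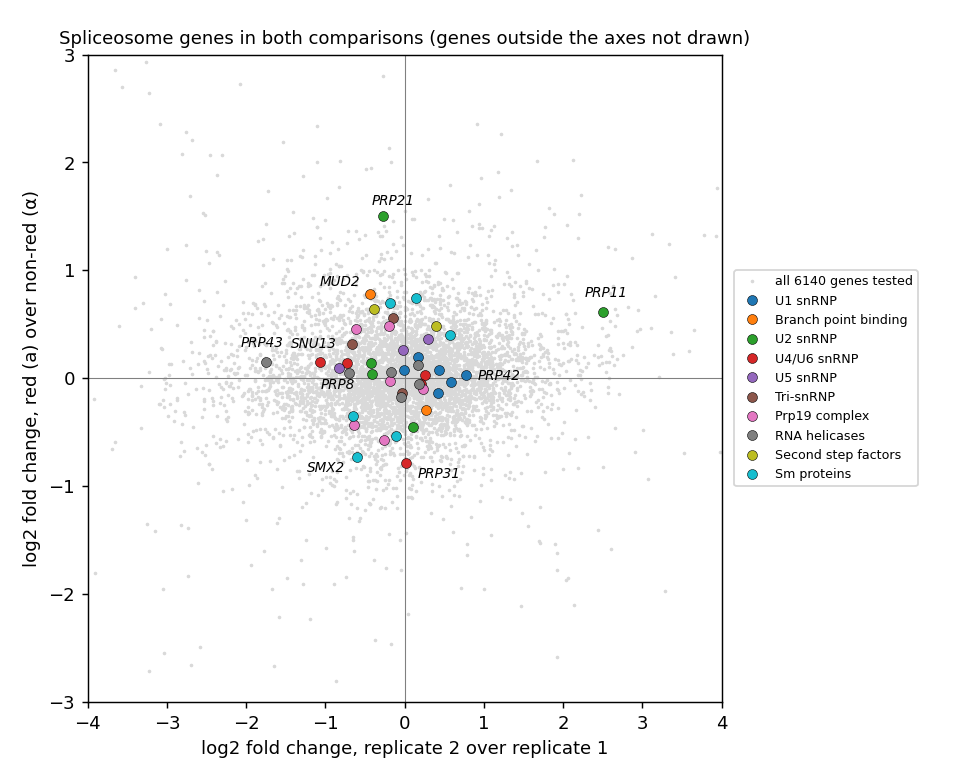
Fitted log2 fold changes of replicate 2 over replicate 1 (horizontal axis) and of red (a) over non-red (α) spores (vertical axis). Large points are the 44 members tested, colored by particle, and small grey points are all 6140 genes tested, of which those outside the axes are not drawn. Most members lie near the origin, with PRP43 at -1.75 and PRP11 at 2.50 on the horizontal axis and PRP21 at 1.51 on the vertical axis.

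Of 44 further spliceosome genes, such as Lsm proteins of U6, cap binding proteins and disassembly factors, 43 were tested and 0 were called in either comparison. By unadjusted p under 0.05, 4 passed in each comparison, beside 182 of all 6140 genes between mating types and 1910 between replicates. DESeq2 called 4 between mating types and 13 between replicates, beside 222 and 2706 of all genes. The likelihood ratio test called 2 between replicates, beside 1604 of all genes. Red and non-red levels did not overlap for 10 of 43 (23.3%, beside 19.1% of all genes), and replicates 2 and 1 did not for 20 (46.5%, beside 62.0%). Their median absolute log2 fold change between replicates was 0.51, compared with 0.29 for the members. LSM8, the Lsm protein particular to the U6 ring, was listed at 0 in all 4 libraries. The counting of overlapping features is not given in the sources used here, so this does not show that the LSM8 transcript was absent. BUD31, a Prp19 complex gene, had 0 and 0 reads in replicate 2 (red and non-red), against 596 and 259 reads in replicate 1. Against a floor of 3 reads in each library of replicate 2, BUD31 was at least 155-fold higher in red replicate 1. In non-red replicate 1 it was at least 50.4-fold higher. BUD31 did not pass the edgeR quasi-likelihood test (FDR = 0.0920), but the likelihood ratio test and DESeq2 called it. It is among the 425 features with 100 or more reads in 1 library and none in another. MER1, the meiosis-specific splicing activator, was detected in every library, with 45.9 and 11.6 CPM in red spores, against 8.35 and 16.9 CPM in non-red spores. Red replicate 1 was the high library, the groups overlapped, and the fitted log2 fold change was 0.96 (FDR = 1.0).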

How the data were processed

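Per the labels and the methods, spore RNA was made into libraries with an mRNA-seq kit from 100 ng total RNA (the series text instead speaks of rRNA-depleted RNA), and the authors used STAR 2.7.3a for alignment to R64 with the cassette added, then featureCounts in its paired mode. The table they deposited gives estimated counts, without normalization. Among the members, between 25 and 33 of 45 values per library were not whole, although none of the 45 genes repeats a 50-base word of the genome. The counting of multi-mapping, overlapping or antisense reads is not given in the sources used here, so reads of a gene and of an antisense transcript cannot be told apart.

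Estimated counts were rounded (whole counts had been assumed) and analysed in R 4.3.3 with edgeR 4.0.16: filterByExpr by color, TMM, and the quasi-likelihood test with color and replicate in the model, at a Benjamini-Hochberg FDR of 0.05 over 6140 genes. The methods name an edgeR model with a batch term but not the statistic, and with 1 residual degree of freedom the likelihood ratio test and DESeq2 1.42.0 were alternatives. The pairing comes from the replicate numbers of the titles and the repeated sporulation and sorting, and deviations from the color means correlated at r = 0.54 between libraries with the same number. Ratios within a replicate used 0.125 CPM as pseudocount, and detection used a floor of 3 reads. Error terms are SDs over libraries or over the 2 ratios. RPKM used RefSeq exon lengths, with 6047 of 7132 features matched by systematic name. For the members these lengths equal the coding lengths, so untranslated ends are not included.

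Members, particles, gene lists and tests were chosen with earlier results of these data known. Values per library are given for the members with the 2 highest and the lowest level, those called, the 2 most positive and negative fold changes in each comparison, and those with introns. MSL5, SNU66, BUD31 and LSM8 were added after their values were seen, as were the promoter boxes. Alternatives were other normalizations, filters and tests, no replicate block, and leaving out each library. The fits that left out a library held only the term being compared. Figures used Python 3.11.15 and matplotlib 3.10.9.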

Additional observations from a re-analysis of the deposited data

Results flagged for a closer look

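For 6 of the members chosen by the rule for values per library, the ratio of replicate 2 over replicate 1 went in opposite directions in red and non-red spores. With 1 ratio per color, the difference between the colors was not tested. On the log2 scale the ratio was 1.05 in red and -1.59 in non-red spores for PRP21, -1.45 and 0.25 for SMX2, and 0.71 and -0.66 for PRP31. For the others it was under 2-fold in each color, with 0.51 in red and -0.23 in non-red spores for SMD2, -0.33 and 0.10 for SMD3, and -0.099 and 0.080 for MUD1. SNU66, given in addition, had -0.45 in red and 0.16 in non-red spores. Opposite directions were found for 16 of the 44 members (36.4%), beside 27.4% of all genes tested.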

How the results depend on the processing

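No member was called between mating types under any alternative. Over all genes that count was 222 by DESeq2, 4 with library totals only, 0 with no replicate block, and 0 to 9 when 1 library was left out. DESeq2 called 4 further spliceosome genes there. Leaving out 1 library, the members' median fold change (log2) was between -0.037 and 0.104 for mating types and between -0.049 and 0.053 for replicates. Between replicates, the members called were 4 by the likelihood ratio test (PRP8, PRP43, PRP11, SNU13), the same 4 with library totals only, 10 by DESeq2, and 0 to 3 when 1 library was left out. The further spliceosome genes called were 2, 2, 13 and 0 to 2 in that order, and 1 with no replicate block, which for this comparison means a fit without the term for spore color. All genes called were 2706 by DESeq2 and 623 to 1340 when 1 library was left out. Between replicates, the likelihood ratio test called 1604 of all genes, and the fit with library totals only called 1605. The replicate block changed no call of a member.

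Directions changed only where no call was made. Red over non-red, PRP43 had -0.31 with no replicate block, -0.84 without red replicate 1 and -1.09 without non-red replicate 2, and between -1.09 and 1.53 over all fits that left out 1 library. PRP8 had -0.36 and -0.34 without the same 2 libraries, in a range up to 0.62. Between replicates, MUD1 had 0.039 with library totals only and between -0.101 and 0.043 when 1 library was left out, and SMD2 had between -0.43 and 0.69. The fits that left out 1 library had no replicate term when colors were compared, and no term for spore color when replicates were. A color or replicate is then unbalanced, so color and replicate are mixed in these fits. The cause of each change of direction was not tested. Without division by length, 20 and 19 members in red spores and 22 and 16 in non-red spores were above the median of all genes. Of the remaining values of single genes, 161 kept direction and side of the threshold, 7 newly passed it and 4 no longer did. Fits of 3 libraries assume that a lone library varies like the others, and 2 libraries per group limit what can be detected.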
